A study of Mus musculus with 90 samples.

Results

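The hypothalamus of control mice at 30 min was compared with that of control mice at 120 min, using the control libraries of the hypothalamus labelled with the numbers 2, 3 and 5 at 30 min (n = 3) and 1, 2, 3, 4 and 6 at 120 min (n = 5). These are 8 of the 90 libraries of the series, each labelled with 1 animal number. The series measured RNA in the amygdala, frontal cortex and hypothalamus of male C57BL/6J mice that had been housed with a female as territory residents. A resident met for 5 min either a caged BALB/cJ male (the intruder-exposed group) or the same kind of wire cage around a paper cup (the control group), and was left undisturbed for 30, 60 or 120 min before its brain was taken. All residents, controls included, had been housed with other males, then alone, then with a C57BL/6J female that was taken out 3 h before the exposure; the labels give no age. The control comparison therefore sets 30 against 120 min after the meeting with the caged cup, without an opponent. The time since the female was taken out runs along with it, and the series has no group without an exposure.

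The samples are pieces of tissue, so fewer cells of a type and less RNA per cell cannot be told apart. Time is also tied to 2 other labels. In the headers of the count table every 30 min library of the series carries the tag ISO and every 60 and 120 min library the tag CERV, which the labels used here do not explain. The 30 min controls share 1 library index, the 120 min controls of numbers 1, 2 and 3 share another, and those of numbers 4 and 6 yet another. Time, tag and index cannot be told apart in these controls.

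Neurons that fire strongly switch on immediate-early genes within minutes, without making new protein first. The transcripts are short-lived, so their level falls again once the input stops. Many encode transcription factors such as FOS and EGR1, and others encode inhibitors that shut the same signals down. The hypothalamus also drives the release of adrenal glucocorticoids under arousal, and those hormones switch on a slower group of genes in neurons, glia and blood vessels through the glucocorticoid receptor.

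The activity-dependent genes are commonly controlled through cyclic AMP response elements (CREs) close to the start of transcription. The promoters of 5 genes that fell between 30 and 120 min are shown to let a reader find these letters beside the expression values that follow. Each is the run of 250 bases before the start in RefSeq's GRCm38.p6 assembly, 5′ to 3′ on the gene's own strand, with capitals on TGACG or its complement CGTCA and on the full palindrome TGACGTCA, which contains both. The Fos window is chr12:85473640-85473889 on the plus strand, Junb is chr8:84978749-84978998 on the minus strand, Nr4a1 is chr15:101266596-101266845 on the plus strand, Btg2 is chr1:134079156-134079405 on the minus strand and Dusp1 is chr17:26508473-26508722 on the minus strand.
Fos: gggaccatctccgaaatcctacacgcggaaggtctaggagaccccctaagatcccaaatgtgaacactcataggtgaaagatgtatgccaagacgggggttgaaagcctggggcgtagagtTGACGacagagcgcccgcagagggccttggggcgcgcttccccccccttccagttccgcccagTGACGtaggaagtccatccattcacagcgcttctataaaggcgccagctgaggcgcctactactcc
Junb: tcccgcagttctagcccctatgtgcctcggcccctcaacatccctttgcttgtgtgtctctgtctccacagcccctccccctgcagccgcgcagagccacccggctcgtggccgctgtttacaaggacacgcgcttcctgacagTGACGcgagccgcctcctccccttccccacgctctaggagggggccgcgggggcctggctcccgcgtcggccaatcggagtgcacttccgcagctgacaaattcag
Nr4a1: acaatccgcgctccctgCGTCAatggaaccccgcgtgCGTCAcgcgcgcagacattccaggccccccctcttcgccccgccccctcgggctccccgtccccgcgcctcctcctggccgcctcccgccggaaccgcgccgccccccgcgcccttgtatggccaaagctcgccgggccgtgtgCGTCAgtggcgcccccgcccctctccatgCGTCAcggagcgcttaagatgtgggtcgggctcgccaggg
Btg2: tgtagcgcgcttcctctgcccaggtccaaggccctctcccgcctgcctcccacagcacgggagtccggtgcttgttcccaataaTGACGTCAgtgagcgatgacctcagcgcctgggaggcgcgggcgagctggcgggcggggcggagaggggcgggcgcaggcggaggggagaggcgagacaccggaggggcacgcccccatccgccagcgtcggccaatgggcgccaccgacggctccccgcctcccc
Dusp1: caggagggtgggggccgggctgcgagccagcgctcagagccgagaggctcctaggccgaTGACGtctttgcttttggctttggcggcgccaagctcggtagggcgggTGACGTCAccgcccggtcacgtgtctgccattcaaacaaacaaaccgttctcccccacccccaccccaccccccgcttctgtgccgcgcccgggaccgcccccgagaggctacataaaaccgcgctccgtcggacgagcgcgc

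In the Fos window the short element TGACG stood at 129 to 125 and at 66 to 62 bases before the start. Btg2 had the full palindrome at 166 to 159 bases and Dusp1 had it at 143 to 136 bases before the start. Promoters were matched for 10 of the 14 genes that fell, and the short element, read on both strands, was in 8 of them, against 3515 of 12553 promoters of all tested genes (28%). The palindrome was in 3 of the 10, Btg2, Dusp1 and Irf2bpl, against 2.77% of all. Among the 14 promoters matched for the 17 genes that rose, 6 held the short element and 0 the palindrome. The CArG box was in 0 of either group and in 1.45% of all promoters, which says only that its letters were not in these windows. A match of letters is a description and does not show that a factor binds there.

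Gene counts summed to 48.9 to 54.5 M reads per library at 30 min and to 40.4 to 51.5 M at 120 min. The share of reads without a unique position was 10.17 to 10.34% at 30 min and 9.916 to 10.15% at 120 min, without overlap, and its part in the results was not tested. Levels are given as CPM, the counts of a gene divided by the scaled library size in M reads. Changes are log2 values of 120 min minus 30 min with their standard error (SE), from edgeR's quasi-likelihood test over 17676 genes with Benjamini-Hochberg adjustment. A gene was called at an adjusted p below 0.05. The test takes its spread from all 28 hypothalamus libraries, and its p-values measure the spread between these animals. The median change over all genes was 0.00. In all, 31 genes were called (0.175% of those tested), of which 14 were lower (0.0792%) and 17 higher (0.0962%) at 120 min. All 31 had libraries that did not overlap between the times, as did 3.32% of all genes downward and 3.34% upward.

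The 8 libraries differed in the levels of genes that mark single hypothalamic nuclei or neighbouring regions; whether this came from the tissue pieces taken was not tested. Agrp, a peptide of arcuate hunger neurons, was at 10.1 CPM in the 30 min control of number 2 but at 0.250 and 0.0559 CPM in numbers 3 and 5. At 120 min it was at 6.25, 10.2, 11.7 and 6.66 CPM in numbers 1 to 4 and at 0.404 CPM in number 6. Pomc, the precursor of arcuate satiety peptides, was likewise low in these 3 libraries, at 75.4, 6.55 and 3.71 CPM and then 41.8, 76.8, 72.0, 38.4 and 15.7 CPM, and Hdc, the histamine enzyme of the tuberomammillary nucleus, was at 98.4, 4.48 and 5.03 CPM and then 42.2, 33.6, 82.2, 37.4 and 8.42 CPM. Low values therefore occurred at both times, in 2 of 3 early and 1 of 5 late libraries. Slc17a7, a vesicular glutamate transporter of cortex, was at 179 CPM in the 120 min control of number 2 and at most at 24.4 CPM in the other 7. Adora2a, a striatal receptor, was at 8.53 CPM in the 30 min control of number 3, and the 9 tested striatal markers all had negative changes with a median of −0.29. Of these 3 (33.3%) were lower at an unadjusted p below 0.05, against 4.66% of all genes, and the count became 0 without the 30 min control of number 3 and 5 without that of number 5.

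**Figure D1:**
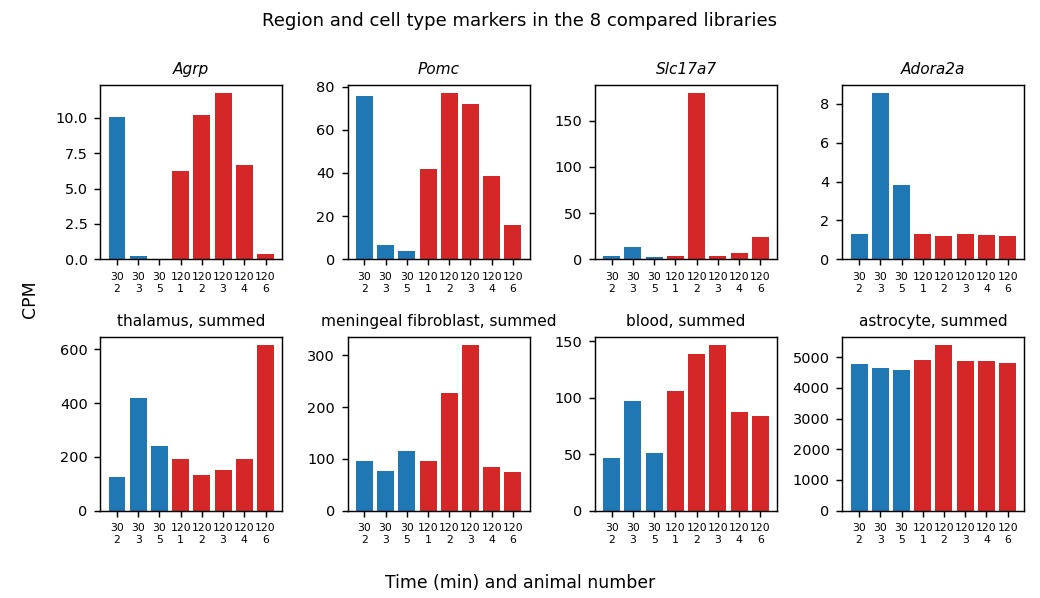
Markers in the 8 compared libraries. Bars give the level of 4 genes and the summed level of 4 marker lists in CPM from 0, with time in min and the animal number on the x axis (blue 30 min, red 120 min); Agrp is near 0 in the 30 min controls of numbers 3 and 5 and the 120 min control of number 6, and Slc17a7 is at 179 CPM in the 120 min control of number 2.

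The 4 called genes with the largest falls were immediate-early transcription factors. Fos (ENSMUSG00000021250), an inducible subunit of the AP-1 factor, was at 35.5, 36.5 and 36.3 CPM at 30 min (36.1 ± 0.555, SD, n = 3) and at 10.7, 8.98, 9.04, 13.2 and 12.4 CPM at 120 min (10.8 ± 1.91, SD, n = 5). The 3 early libraries lay close together and far above the 5 late ones, a change of −1.74 ± 0.18 (SE), or 3.33-fold, with an adjusted p of 6.08e-06 in edgeR's test. Junb (ENSMUSG00000052837), another AP-1 subunit, was at 28.5, 22.2 and 25.4 CPM and then at 10.1, 12.8, 10.1, 10.5 and 8.24 CPM. It too had no overlap between the times and changed by −1.29 ± 0.14, with the same adjusted p of 6.08e-06.

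Egr1 (ENSMUSG00000038418), a zinc-finger factor linked to synaptic plasticity, was at 75.6, 90.3 and 83.8 CPM at 30 min and at 31.6, 40.3, 27.2, 38.7 and 39.4 CPM at 120 min. All 5 late libraries were far below the lowest early one, and the change was −1.23 ± 0.17, adjusted p = 0.000341 in edgeR's test. Nr4a1 (ENSMUSG00000023034), an orphan nuclear receptor, was at 30.5, 29.7 and 29.7 CPM and then at 13.8, 13.9, 10.8, 14.9 and 13.5 CPM, a change of −1.16 ± 0.15. Btg2 (ENSMUSG00000020423), which promotes the shortening of messenger RNA tails, was at 18.3, 19.3 and 16.9 CPM and then at 10.4, 11.2, 10.5, 10.6 and 9.22 CPM, a change of −0.80 ± 0.11. The early libraries were above the late ones in both genes, whose adjusted p in edgeR's test were 0.000127 and 0.000654. Without each of the 8 libraries in turn, Fos, Junb, Egr1, Nr4a1 and Btg2 kept their calls in 8 of 8 fits.

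**Figure D2:**
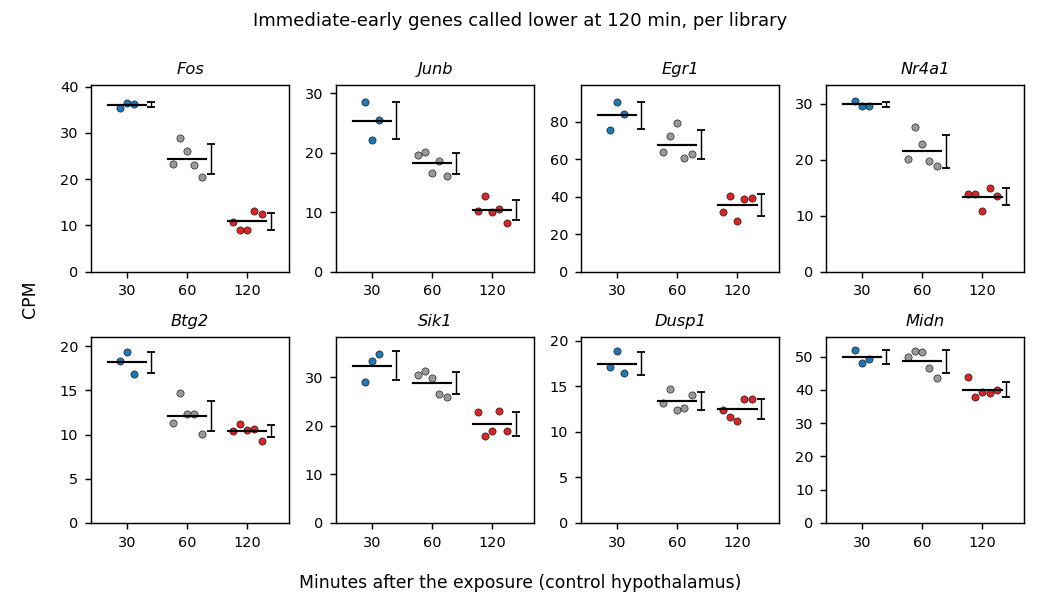
Levels of 8 immediate-early genes that fell between 30 and 120 min in control hypothalamus. Each point is 1 library (blue 30 min, grey 60 min, red 120 min), the y axis is CPM from 0, the x axis is time after the exposure in min, the horizontal line is the group mean and the bar beside it is ± 1 SD; in each panel the red points all lie below the blue points.

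The list of immediate-early transcription factors had 24 members, all of them tested. Of these, 5 were called lower, against 0.0792% of all genes, and 0 were called higher. The 5 were Fos, Junb, Egr1, Nr4a1 and the coregulator Btg2, which is no DNA-binding factor. At an unadjusted p below 0.05, 13 members (54.2%) were lower, against 4.66% of all genes, and 20 had a negative change. The median change of the list was −0.35, beside 0.00 for all genes. The summed level of the 24 genes was 486 to 527 CPM over the 3 early libraries and 348 to 381 CPM over the 5 late ones, with no overlap. Leaving out the 30 min controls of numbers 3 and 5, which had little Agrp, left 11 members lower at an unadjusted p below 0.05 and a median of −0.55, with the lone early library assumed to vary like the other groups.

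Several members were close to the threshold. Nr4a3, a receptor of the same family as Nr4a1, was at 20.1, 17.1 and 18.5 CPM at 30 min and at 9.88, 14.3, 9.11, 8.74 and 9.63 CPM at 120 min. Its groups did not overlap, although number 2 stood above the other late libraries, and its change of −0.84 ± 0.18 had an adjusted p of 0.0517 in edgeR's test. Fosb, a further AP-1 subunit, was at 10.1, 9.49 and 9.60 CPM and then at 5.51, 4.98, 6.39, 5.74 and 5.05 CPM, with a change of −0.81 and an adjusted p of 0.0845. Npas4, a factor induced by calcium entry in neurons, had a change of −0.44 (adjusted p = 0.164). Other members had values near 0: Jun was at −0.12, Jund at 0.03, Ier5 at 0.05 and Myc at −0.04, none of them called. Klf10, a further factor of the list, was at 0.36 (adjusted p = 0.587) and Egr3 at 0.20 (adjusted p = 0.904), and in both number 2 was the highest late library, at 12.1 and 7.50 CPM.

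The second list held 31 tested immediate-early effectors and signal inhibitors. In it 3 genes were called lower, against 0.0792% of all genes, and 0 were called higher. At an unadjusted p below 0.05, 8 (25.8%) were lower, against 4.66% of all genes, and the median was −0.09. That count of 8 became 5 without the 30 min control of number 3. Sik1 (ENSMUSG00000024042), a kinase that restrains CREB-dependent transcription, was at 29.0, 33.4 and 34.7 CPM and then at 22.9, 17.9, 18.9, 23.0 and 18.9 CPM. It fell by 0.67 on the log2 scale with no overlap (adjusted p = 0.000979 in edgeR's test). Its call was lost in the fit of the 8 compared libraries alone and against the 120 min controls of numbers 4 and 6. Dusp1 (ENSMUSG00000024190), a phosphatase that switches off MAP kinases, was at 17.1, 18.9 and 16.4 CPM and then at 12.3, 11.6, 11.2, 13.6 and 13.5 CPM. Midn (ENSMUSG00000035621), which carries short-lived nuclear proteins to the proteasome, was at 52.2, 48.1 and 49.4 CPM and then at 44.0, 38.0, 39.3, 39.2 and 39.9 CPM. The early libraries of both genes were above all late ones, and the changes were −0.49 (adjusted p = 0.0115) and −0.32 (adjusted p = 0.00753). Midn lost its call without the 30 min control of number 2 (adjusted p = 0.0996) or number 5 (0.0615), and Dusp1 without number 2 (0.0566) or number 3 (0.114). Arc, a synaptic immediate-early effector, had a change of −0.55 (adjusted p = 0.164), and Ccn1, a secreted matrix protein, of −0.67 (adjusted p = 0.0845).

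**Figure D3:**
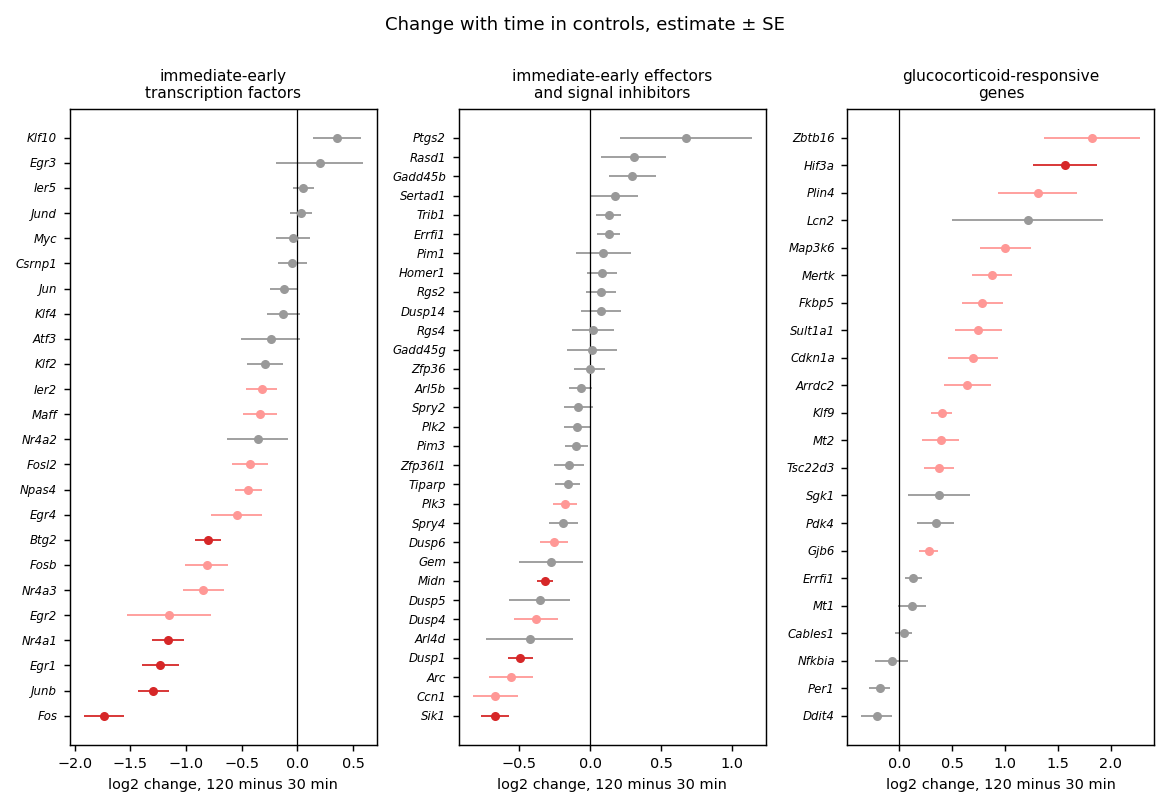
Change of every tested member of 3 gene lists in control hypothalamus, with the immediate-early transcription factors on the left, the effectors and signal inhibitors in the middle and the glucocorticoid-responsive genes on the right. The x axis is log2 change, 120 minus 30 min, points are estimates with bars of ± 1 SE, dark red marks an adjusted p below 0.05, light red an unadjusted p below 0.05 alone and grey neither; Fos has the lowest value at −1.74 and Zbtb16 the highest at 1.82.

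Outside these lists, 6 genes fell. 1700016P03Rik (ENSMUSG00000085609), a noncoding host transcript of microRNAs induced by neuronal activity, was at 7.42, 7.05 and 6.17 CPM and then at 3.65, 2.81, 2.92, 3.68 and 2.75 CPM. All late libraries were below the early ones, with a change of −1.12 ± 0.17 (adjusted p = 0.00166), and the call was kept in 8 of 8 fits that left out 1 library. Ogdhl (ENSMUSG00000021913), a mitochondrial relative of oxoglutarate dehydrogenase, was at 127, 139 and 147 CPM and then at 95.0, 89.8, 96.9, 99.95 and 94.5 CPM, a change of −0.53 (adjusted p = 0.00349). The groups did not overlap, but without the 30 min control of number 5 the adjusted p was 0.0780. The falls of Rgma, a guidance molecule and BMP coreceptor (−0.24), Irf2bpl, a nuclear regulator (−0.23), Sall2, a zinc-finger factor (−0.22), and Gimap9, an immune GTPase (−0.99), were called at adjusted p from 0.0417 to 0.0471. These 4 calls were the least firm of the falls: of the 8 fits without 1 library, Irf2bpl was called in 3, Rgma in 2, and Sall2 and Gimap9 in 1 each, with the highest adjusted p at 0.268 for Gimap9 without the 30 min control of number 5. The Gimap9 value rests on 76 reads over the early libraries and 60 over the late ones.

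The 17 genes that rose formed a more varied group. Rbm25 (ENSMUSG00000010608), an RNA-binding regulator of splicing, was at 68.4, 96.7 and 104 CPM at 30 min and at 126, 131, 127, 132 and 142 CPM at 120 min. The late libraries were tight and all higher, while number 2 was the low one of the early libraries. The change was 0.55 ± 0.09 (adjusted p = 0.00463 in edgeR's test), and 0.39 without number 2 (adjusted p = 0.0400), the lowest of its 8 leave-one-out values. In the fit of the 8 compared libraries alone its adjusted p was 0.344, and in that of the control libraries of 3 times it was 0.0565. Eva1a (ENSMUSG00000035104), a regulator of autophagy, was at 8.74, 8.13 and 6.39 CPM and then at 11.5, 12.0, 11.2, 12.6 and 11.9 CPM, a rise of 0.61 (adjusted p = 0.00349). Rin2 (ENSMUSG00000001768), an activator of the small GTPase RAB5, was at 38.4, 36.8 and 31.1 CPM and then at 50.7, 52.9, 52.3, 51.0 and 45.9 CPM, a rise of 0.51 (adjusted p = 0.00898). In both the 30 min control of number 5 was the lowest library, and without it the adjusted p were 0.0780 for Eva1a and 0.151 for Rin2. Ada (ENSMUSG00000017697), which deaminates adenosine, was at 0.680, 0.813 and 0.522 CPM and then at 1.62, 1.54, 1.28, 1.84 and 1.26 CPM. The rise of 1.17 (adjusted p = 0.00753) was no longer called without number 2 (0.0566) or number 5 (0.134) of the early libraries.

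Lifr (ENSMUSG00000054263), the receptor of leukemia inhibitory factor, was at 33.0, 38.4 and 35.5 CPM and then at 50.6, 53.5, 44.5, 57.1 and 52.2 CPM, a rise of 0.53 (adjusted p = 0.0227). Spsb1 (ENSMUSG00000039911), an adaptor of a ubiquitin ligase, was at 12.1, 12.6 and 12.1 CPM and then at 17.6, 18.9, 17.5, 19.7 and 15.2 CPM, a rise of 0.54 (adjusted p = 0.0206). Nrros (ENSMUSG00000052384), which holds latent TGF-beta on microglia, was at 3.00, 3.75 and 3.32 CPM and then at 5.21, 6.89, 5.15, 7.0 and 4.98 CPM. Its groups did not overlap, like those of Lifr and Spsb1, and it rose by 0.80 (adjusted p = 0.0176). Hes1, the repressor that Notch signalling induces (0.61, adjusted p = 0.0417), Nostrin, which regulates endothelial nitric oxide synthase (0.60, adjusted p = 0.0227), Ptbp3, a splicing regulator (0.32, adjusted p = 0.0337), and Fam214a (0.52, adjusted p = 0.0176) rose as well. Fam83d, a spindle protein, rose by 0.93, and Ptpdc1 and Tcaim, which were named after their values were seen, by 0.24 and 0.20, each with an adjusted p of 0.0471. The long noncoding RNA Trp53cor1 rose by 1.32 on 38 early and 149 late reads. Timp1, an inhibitor of matrix metalloproteinases, had the largest estimate, 2.50 ± 0.53 (adjusted p = 0.0466), on 11 reads over the 3 early libraries and 101 over the 5 late ones. Of the 8 fits that left out 1 library, Trp53cor1 was called in 5, Lifr and Nrros in 4, Spsb1, Nostrin and Fam214a in 3, Hes1, Ptbp3, Fam83d and Tcaim in 2, and Ptpdc1 in 1. The highest adjusted p of each came without a 30 min control, from 0.0996 for Trp53cor1 without number 2 to 0.299 for Fam83d without number 5. Timp1 was called in 2 of them, with an adjusted p of 0.260 without the 30 min control of number 5.

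Over all 31 genes, 8 were called in every leave-one-out fit, and 23 lost the call in at least 1. The 8 were Fos, Junb, Nr4a1, Egr1, Btg2, Sik1 and 1700016P03Rik, which fell, and Rbm25, which rose. The number of called genes was 14, 20 and 10 without the 30 min controls of number 2, 3 and 5. It was 41, 19, 26, 17 and 30 without the 120 min controls of number 1, 2, 3, 4 and 6. The split moved too: without the 30 min control of number 5, and likewise from the 8 compared libraries alone, 1 gene was called higher and 9 lower. With the replicate number as a block 13 were called higher and 17 lower. No gene among the 31 changed sign in these fits. Within the library indexes, 18 genes were called against the 120 min controls of numbers 1, 2 and 3, and 2 against those of numbers 4 and 6, which were Fos and Junb.

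Hif3a (ENSMUSG00000004328), a subunit of the hypoxia-inducible factors that glucocorticoids also induce, was the member of the glucocorticoid-responsive list that was called. It was at 7.70, 8.70 and 3.49 CPM at 30 min and at 18.9, 20.6, 18.2, 23.2 and 17.1 CPM at 120 min. Every late library was well above every early one, a 2.96-fold rise of 1.57 ± 0.30 (adjusted p = 0.0181 in edgeR's test). Without number 2 or 5 of the early libraries, or number 4 of the late ones, the adjusted p was 0.0677, 0.192 or 0.0576.

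The list had 22 tested members. At an unadjusted p below 0.05, 13 of them (59.1%) were higher at 120 min and 0 were lower, against 5.58% of all genes higher; 19 had a positive change, and the median was 0.40. Zbtb16, a transcription factor with a strong glucocorticoid response in brain, was at 15.7, 11.5 and 8.67 CPM and then at 40.5, 50.0, 38.4, 48.0 and 34.3 CPM. Each late library was far above the highest early one, and the change of 1.82 ± 0.46 had an adjusted p of 0.106. Fkbp5, a chaperone partner that damps the glucocorticoid receptor, was at 41.7, 37.4 and 28.9 CPM and then at 60.0, 76.1, 65.8, 61.7 and 46.0 CPM, with a change of 0.78 ± 0.19 (adjusted p = 0.0948). Plin4, which coats lipid droplets, was at 15.9, 21.0 and 9.64 CPM and then at 42.9, 44.6, 29.7, 40.0 and 34.5 CPM, with a change of 1.31 (adjusted p = 0.181). In these 3 genes the groups did not overlap and the 30 min control of number 5 was the lowest library. Klf9, a hormone-regulated transcription factor, was at 60.1, 69.4 and 57.8 CPM and then at 74.5, 88.8, 78.6, 87.6 and 82.5 CPM (0.40, adjusted p = 0.0846). Mertk, a receptor for the clearance of dying cells, was at 23.5, 21.5 and 16.6 CPM and then at 36.2, 45.6, 34.0, 38.5 and 33.9 CPM (0.88, adjusted p = 0.0524). Sgk1, a kinase of ion transport, was at 62.8, 120 and 62.6 CPM and then at 92.9, 143, 81.1, 139 and 71.9 CPM, so its groups overlapped (0.37, adjusted p = 0.702). Per1, a clock gene that glucocorticoids also induce, had a change of −0.19 (adjusted p = 0.533).

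The 10 members whose libraries did not overlap were all higher at 120 min, against 3.34% of all genes. The summed level of the 22 genes nevertheless overlapped, at 779 to 1059 CPM at 30 min and 1016 to 1353 CPM at 120 min. The summed astrocyte markers were also higher at 120 min, at 4583 to 4773 CPM and then 4796 to 5394 CPM, narrowly without overlap. Over the 14 astrocyte genes the median change was 0.06, and 4 changes were negative. The blood markers were higher in 5 of 5 genes at an unadjusted p below 0.05, against 5.58% of all genes. The part of both marker lists in the glucocorticoid-list values was not tested. With the 30 min control of number 2 as the sole early library, 8 members were higher at an unadjusted p below 0.05 and the median was 0.41.

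**Figure D4:**
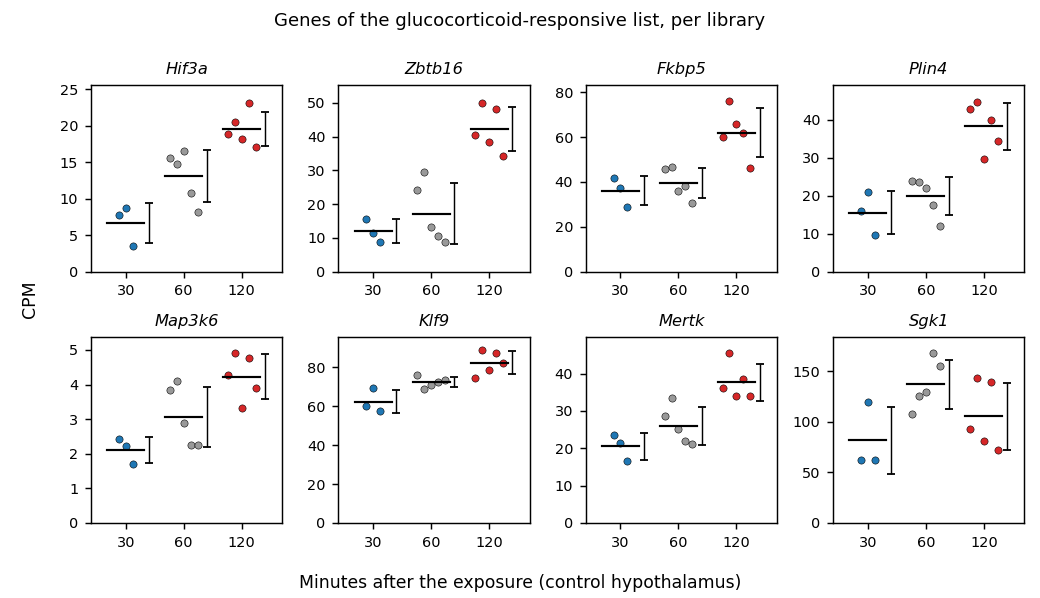
Levels of 8 genes of the glucocorticoid-responsive list in control hypothalamus. Points are libraries (blue 30 min, grey 60 min, red 120 min), the y axis is CPM from 0, the x axis is time after the exposure in min, lines are group means and bars ± 1 SD; in all panels except that of Sgk1 the red points lie above the blue ones.

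The 60 min controls (n = 5) enter both the step from 30 to 60 min and that from 60 to 120 min, so these steps share libraries with each other and with the main comparison. The step from 30 to 60 min crosses from the tag ISO to CERV. That from 60 to 120 min lies within CERV, while the library index differs in both steps. At 60 min the group mean was 24.3 CPM for Fos, 18.2 for Junb, 67.7 for Egr1, 21.5 for Nr4a1 and 13.2 for Hif3a. Each lay between the means of the ends, in genes chosen for the gap between those ends. From 30 to 60 min 3 genes were called, all higher (0.017%): Lrrc58 (0.23), Rassf8 (0.45) and ENSMUSG00000090739 (0.22), and this count was 0 without the 30 min control of number 2 or 3 or the 60 min control of number 3, 5 or 6. From 60 to 120 min 7 were called, all lower (0.0396%), among them Fos (−1.17), Egr1 (−0.94) and Junb (−0.81). That count was 4, 4 and 3 without the 120 min controls of number 2, 4 and 6, and 3, 4 and 3 without the 60 min controls of number 1, 2 and 3. The immediate-early transcription factors had a median of −0.05 from 30 to 60 min and of −0.29 from 60 to 120 min. The glucocorticoid list had medians of 0.28 and 0.14 over the same steps. Fosb, from the first list, was at 8.56 to 10.5 CPM at 60 min, which overlapped with the 30 min libraries and lay above the 120 min ones.

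The change with time was then set beside that of the intruder-exposed residents, whose 30 and 120 min libraries (n = 5 and 5) are other animals. In them 341 genes were called (1.93%), 171 higher (0.967%) and 170 lower (0.962%). Of the 31 control genes, 19 were also called there (61.3% of the control calls and 5.57% of the intruder calls), all in the same direction, 11 lower and 8 higher. In sign alone 29 of 31 agreed, against 55.0% of all genes. The intruder-exposed libraries carry the same tags at the same times as the controls. Those of numbers 3, 4 and 5 at 30 min share the library index of the 30 min controls. All those at 120 min share that of the 120 min controls of numbers 1, 2 and 3. The part of tag and index in this agreement was not tested. Fos changed by −1.74 in both conditions, from a higher start in the intruder-exposed residents (52.3 ± 12.7 CPM at 30 min and 15.7 ± 3.76 at 120 min, SD, n = 5 each). Junb changed by −1.53 there, Nr4a1 by −1.43, Egr1 by −1.20 and Btg2 by −1.27. Hif3a was at 0.71 (adjusted p = 0.140), Ogdhl at −0.15 and Timp1 at −0.06 in the intruder-exposed residents, none of them called.

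The difference between the conditions was tested in the same fit. By edgeR's test 0 genes were called (0%), 1342 had an unadjusted p below 0.05 (7.59%), limma voom called 0 and DESeq2 called 12. The count was 2 without the 120 min intruder-exposed library of number 3 and 3 without that of number 6. Among the 31 control genes, 11 had an unadjusted p below 0.05, and the smallest adjusted p was 0.348. The 31 were chosen for their control change, which enters this difference, so their count cannot be read against the 7.59%. The intruder-exposed change minus the control change was 0.00 for Fos, −0.24 for Junb, −0.47 for Btg2, 0.38 for Ogdhl, −0.85 for Hif3a, −1.17 for Trp53cor1 and −2.56 for Timp1. The immediate-early transcription factors had a median change of −0.45 in intruder-exposed residents, with 12 called lower (0.962% of all genes), and the glucocorticoid list one of 0.35, with 5 called higher (0.967% of all genes).

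**Figure D5:**
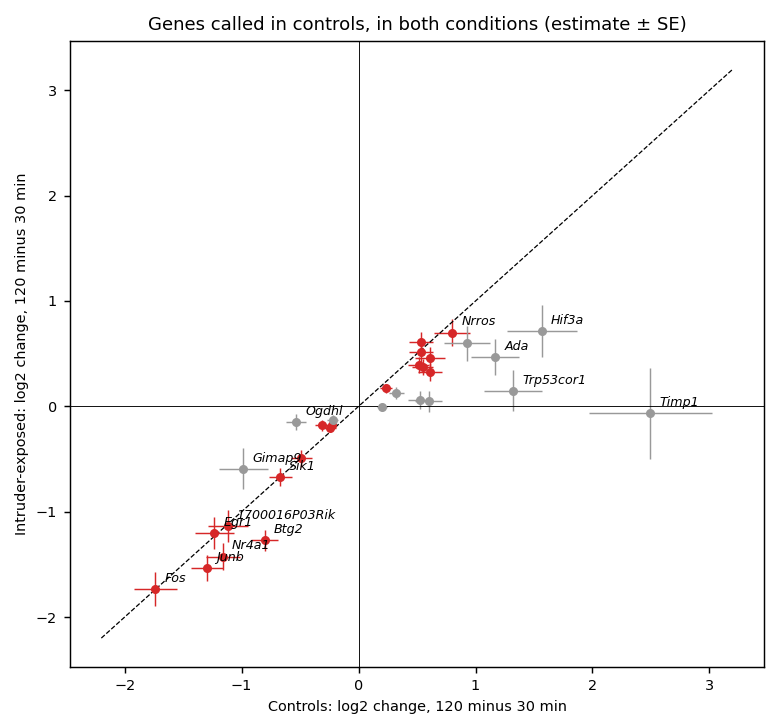
Change of the 31 called control genes in both conditions. The x axis is the log2 change (120 minus 30 min) in controls and the y axis that in intruder-exposed residents, points are estimates with bars of ± 1 SE, the dashed line marks equal change, and red marks genes also called in intruder-exposed residents; Fos lies on the line at −1.74 and Timp1 far to its right.

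The other regions came from the same animals, so libraries differ but residents are shared. In amygdala controls 25 genes were called (0.145%) and in frontal cortex controls 755 (4.42%). Of the 31 hypothalamus genes, 29 had the same sign in amygdala, against 54.9% of all genes, and 9 were on both lists of calls, of 31 and of 25. In frontal cortex 24 had the same sign, against 41.0% of all genes, and 10 were on both lists, of 31 and of 755. The median change of the immediate-early transcription factors was −0.43 in amygdala and −0.36 in frontal cortex, beside −0.35 in hypothalamus. For the glucocorticoid list it was 0.21 and 0.24, beside 0.40.

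Differences between regions were tested over the 44 control libraries with the 16 animals as a block. Against amygdala 1 gene was called (0.00554%): the change of Egr1 was more negative in hypothalamus by 0.93 ± 0.14, adjusted p = 0.00703 in edgeR's test, from −1.23 in hypothalamus and −0.40 in amygdala in the fits of the single regions. The count was 0 without the animal block, 0 without the 30 min hypothalamus control of number 2 and 4 without the 120 min one of number 1. Against frontal cortex 720 genes were called (3.99%), and 14 of the 31 were among them. The 31 were chosen for their hypothalamus change, which enters this difference, so their count cannot be read against the 3.99%. Fos, Junb, Nr4a1 and Egr1 had differences of −0.86, −0.71, −0.73 and −1.06, that is, more negative in hypothalamus. Rbm25 differed by 0.95 ± 0.12, the smallest p of this test, and its frontal cortex change was −0.43 (adjusted p = 0.00178), opposite to the rise of 0.55 in hypothalamus and of 0.54 in amygdala. Ptbp3 likewise was at −0.32 in frontal cortex, and differed by 0.67. Lifr (0.63), Hes1 (0.90) and Nostrin (0.67) also had more positive changes in hypothalamus. Without the animal block the count of 720 was 297. Without the 30 min hypothalamus controls of number 2, 3 and 5 it was 284, 284 and 149, and without the 120 min ones of number 2, 3 and 4 it was 434, 421 and 322.

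Cell type markers varied as well. Blood markers, which are globin genes and a heme enzyme, summed to 47.2 to 97.3 CPM at 30 min and to 83.6 to 147 CPM at 120 min, with a median change of 0.78. The globin genes are near-identical copies, so single values among them are uncertain. Of those 5 genes, 3 were higher at an unadjusted p below 0.05 without the 30 min control of number 2, and 0 with numbers 4 and 6 as the sole late libraries. Meningeal fibroblast markers had positive changes in 12 of 12 genes (median 0.65), with sums of 77.2 to 116 CPM and then 74.1 to 320 CPM, so the groups overlapped. Sums of endothelial (490 to 522 CPM and then 512 to 554 CPM) and microglial markers (420 to 474 CPM and then 425 to 496 CPM) overlapped too. The part of these differences in the genes that rose was not tested, apart from the fits without the libraries concerned. With numbers 1, 3 and 4 as the sole late libraries 15 genes were called, and with number 2 as the sole early library 6 were, Fos and Junb in both.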

How the data were processed

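Poly(A) RNA was sequenced as single-end reads from stranded libraries, per the labels' protocols. The deposited table holds whole-number read counts per gene for 90 libraries and 37991 Ensembl genes. Per the submitters' processing notes CASAVA 1.8.2, TopHat2 2.0.8, HTSeq 0.6.1, edgeR 3.2.4 and R 3.0.0 were used with the build NCBIM37; whether the counting used strand is not given in the sources used here, so overlapping and antisense genes are uncertain. All 90 columns matched a sample. The 5 summary rows of reads without a gene (22.2 to 23.0% of the reads in the 8 libraries) were left out of sizes and tests. Symbols were matched for 32919 identifiers.

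The counts of all 28 hypothalamus libraries in 6 groups of condition and time were fitted with edgeR 4.0.16 in R 4.3.3 (filterByExpr, TMM scaling, quasi-likelihood F test, two-sided, Benjamini-Hochberg adjustment over 17676 genes). Region differences used 44 control libraries, 16 animals as a block and 18056 genes. CPM use the TMM-scaled sizes. Alternatives were DESeq2 1.42.0, limma 3.58.1 (voom), other scalings, filters, sample sets, a replicate block and leaving out libraries; those without libraries that stood apart in region markers and those for the 60 min steps were chosen after seeing the data. On simulated counts with 100 planted changes of each size, the main test recovered 81% of 1.5-fold and 97% of 2-fold changes, with 7.29% false calls. Each simulated gene varied on its own with a spread typical of its level, and genes of very low level were not changed. Shifts shared by many genes of a library were absent, so these shares are not the power in the real libraries, which was not tested.

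The genes named are up to 15 called per direction with the smallest adjusted p, up to 3 per direction in the other tests, and members of the gene lists. The members and lists were chosen with earlier results of these data known. No 2 of the 8 libraries from the same time were alike within sampling noise. Equal numbers at 30 and 120 min do not mark a shared animal, and deviations of the libraries of number 2 and number 3 correlated at 0.184 and −0.511, so the numbers were not treated as pairs. Reads carry no molecular identifiers, so counting error is a lower limit. Promoter sequences are RefSeq's, in GRCm38.p6, which is not the build of the counts.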

Additional observations from a re-analysis of the deposited data

Results flagged for a closer look

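In the 120 min controls 1 library stood apart from the other 4 in 16 of the 120 values checked (13.33%). The cut used sets apart about 1 in 20 groups of independent, normally spread values. The values checked come from the same libraries and many are of related genes, so these shares cannot be compared. The library of number 2 stood apart 11 times. It was the highest for the transcription factors Nr4a3 (14.3 CPM), Egr4 (4.61 CPM), Klf10 (12.1 CPM) and Egr3 (7.50 CPM), and for the effectors Ccn1 (3.65 CPM), Ptgs2 (3.26 CPM), Plk2 (58.8 CPM), Homer1 (55.3 CPM) and Dusp14 (20.2 CPM). Its summed astrocyte markers (5394 CPM) and cortex markers (925 CPM) were also the highest. The library of number 6 stood apart for Nr4a2 (13.9 CPM, the highest), Rgs2 (82.0 CPM, the lowest), Rgs4 (222 CPM) and the summed thalamus markers (616 CPM, the highest). The library of number 3 stood apart for Zfp36 (3.66 CPM).

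The change with time differed between regions by the test of the difference itself, in 15 values of the genes called in hypothalamus. These genes were chosen for their hypothalamus change, which enters the difference. Against amygdala this was Egr1 (−0.93). Against frontal cortex the more negative changes in hypothalamus were those of Egr1 (−1.06), Fos (−0.86), Nr4a1 (−0.73), Junb (−0.71), Ogdhl (−0.59) and Rgma (−0.44). The more positive ones were those of Timp1 (2.35), Rbm25 (0.95), Hes1 (0.90), Nostrin (0.67), Ptbp3 (0.67), Lifr (0.63), Hif3a (0.50) and Rin2 (0.35).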

How the results depend on the processing

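No direction reversed in any alternative for the 31 called genes; over their alternatives the call was kept 389 times and lost 256 times, and Fos and Junb kept it in all 21. The main count of 31 was 138 by DESeq2, 10 (1 higher, 9 lower) from the 8 compared libraries alone, 18 against the 120 min controls of numbers 1, 2 and 3 and 2 against numbers 4 and 6, with 10 to 41 when 1 library was left out. The alternatives chosen after seeing the data gave 6 (number 2 as the sole 30 min control) and 15 (120 min controls of numbers 1, 3 and 4). The replicate block gave 30 genes (13 higher, 17 lower), 20 of them among the 31. The difference between conditions, 0 genes, was 12 by DESeq2 and 0 to 3 with 1 library left out. The 60 against 30 min count of 3 was 30 by DESeq2, 5 with upper-quartile scaling, 0 without a filter, 6 with at least 1 CPM in 3 libraries, 1 with the replicate block, and 0 to 3 leaving out 1 library. The 120 against 60 min count of 7 was 38 by DESeq2, 12 with the replicate block, and 3 to 9 leaving out 1 library. The region difference to amygdala, 1 gene, was 0 without the animal block, 13 by DESeq2 and 0 to 4 leaving out 1 library; that to frontal cortex, 720, was 297, 1248 and 149 to 766. With the library index as a block the main contrast cannot be estimated. With 3 early libraries, planted 1.5-fold changes were recovered in 81% of the changed genes, in simulated counts without shifts shared by the genes of a library.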

Other observations

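Lists other than the immediate-early and glucocorticoid ones had 0 called genes by edgeR's test in the control comparison. Over all genes, 4.66% were lower and 5.58% higher at an unadjusted p below 0.05 in this comparison, and the counts of members that follow are to be read against these shares. Core clock genes, 23 of them, had 0 members at an unadjusted p below 0.05 and a median change of 0.01; Dbp, an output gene of the clock, was at −0.20 and Per2, a repressor of it, at 0.17. Late activity-regulated genes had a median of 0.08 over 22 members. Genes that respond to insulin and fasting had a median of 0.12 over 18 members, 3 of them (16.7%) higher at an unadjusted p below 0.05, and sterol synthesis genes a median of 0.00.

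Of 32 tested neuropeptide genes, 3 (9.38%) were lower at an unadjusted p below 0.05, against 4.66% of all genes. They were Tac2, which encodes neurokinin B (22.7, 34.6 and 43.3 CPM at 30 min, 27.8, 17.5, 20.9, 18.9 and 25.3 CPM at 120 min), Penk, the enkephalin precursor (−0.35), and Gnrh1, the releasing hormone of gonadotropins (−0.80). The groups of Tac2 overlapped. The stress peptide Crh was at 1.94, 10.8 and 12.2 CPM and then at 6.03, 1.64, 1.54, 5.66 and 7.61 CPM, with the low values in libraries that had high Agrp.

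Nuclear genes of oxidative phosphorylation had negative changes in 75 of 78 members, against 8565 of all 17676 genes. Their median was −0.09, with 7 (8.97%) lower at an unadjusted p below 0.05 and 0 called. In the intruder-exposed residents their median was 0.08. The 12 tested mitochondrially encoded protein genes all had negative changes (median −0.08), while the share of mitochondrial reads overlapped between the times (6.59 to 7.13% and then 6.45 to 6.93%). Heat shock genes had a median of −0.06 in controls and of 0.25 in intruder-exposed residents, and 16 of 20 had an unadjusted p below 0.05 for the difference between conditions, against 7.59% of all genes, and 0 of them were called. Endothelial markers had medians of −0.05 and −0.56, with 16 of 20 called lower in the intruder-exposed residents, against 0.962% of all genes.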
